A study of Mus musculus with 10 samples.

Results

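The striatal neuron genes are 9 genes that mark the projection neurons of the striatum: Drd1, Drd2, Adora2a, Ppp1r1b, Penk, Pdyn, Tac1, Rgs9 and Pde10a. They were chosen by name, with their older symbols (Drd1 appears on the array as Drd1a), and had 15 of the 41174 non-control probes. Of these probes, 14 entered the test, and so all 9 genes stand among the 20069 genes tested. RNA was measured in the hippocampus of 10 adult ICR mice, an outbred laboratory stock, on 1-colour Agilent arrays, with 1 animal per array. In the high estradiol group (HE, 5 animals) the pregnant dams had been given estradiol valerate, an ester that releases estradiol, by mouth in corn oil, 100 µg per kg and day, over the gestation days E5.5 to E11.5. The dams of the other 5 animals (the controls, NC) were given the same volume of corn oil. All offspring were labelled adult and male, and neither a transgene nor a deletion was part of the design. The litter of each animal is not given in the labels, so a p-value here speaks of the spread among these 10 animals alone.

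The projection neurons of the striatum are inhibitory and fall into a direct and an indirect output pathway. Direct-pathway cells carry the dopamine receptor encoded by Drd1, which stimulates cyclic AMP synthesis, and make the peptide precursors encoded by Tac1 and Pdyn. Indirect-pathway cells carry the receptor encoded by Drd2, which inhibits cyclic AMP synthesis, together with the adenosine receptor encoded by Adora2a, and make the enkephalin precursor encoded by Penk. Both share the signalling proteins encoded by Ppp1r1b, Rgs9 and Pde10a. The hippocampus is known to express some of these genes itself, among them Pdyn in dentate granule cells and Penk in scattered interneurons.

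The arrays lay on 3 slides, each with a scan of its own. Slide 1 held NC 1 to NC 4, slide 2 held HE 1, HE 2 and NC 5, and slide 3 held HE 3 to HE 5. The 75th percentile of the signal was 898 to 1277 between arrays, 70.3% to 78.9% of probes were well above background, and precision is limited by how many arrays there are. Of the markers of hippocampal cells, 8 of 10 for dentate granule cells, 7 of 8 for CA1 and 7 of 8 for CA3 were well above background on all 10 arrays. So were 10 of 10 neocortex markers and 11 of 12 thalamus and habenula markers. This measure does not tell the regions apart and cannot check the tissue label. The male label was not borne out on 7 arrays (HE 1 to HE 3 and NC 1 to NC 4), on which Xist, the RNA of the inactive X chromosome, lay above the Y-linked gene Ddx3y. On HE 4, HE 5 and NC 5 it lay below. NC 1, NC 2 and NC 4 also stood apart in Alb, the liver-made albumin, which lay between -0.20 and 0.50 there, against -8.77 to -5.69 in HE and -7.91 and -4.80 on NC 3 and NC 5. Signals are given on the log2 scale as the distance from the 75th percentile of their own array, so that they can be compared between arrays for a probe and not between genes.

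In each of the 9 genes the HE and NC arrays overlapped, and no difference between the groups passed the test. All 9 fitted differences were positive (HE minus NC), from 0.11 for Tac1 to 1.23 for Ppp1r1b with a median of 0.65 on the log2 scale, against a median of -0.06 over all genes tested. The 9 signs are not independent, since the members rose and fell on the same arrays (median r of 0.94 between pairs, below). Leaving out 1 array gave medians from 0.28 (without HE 3) to 1.11 (without HE 4). By limma with Benjamini-Hochberg adjustment over all genes, 0 of the 9 passed at 0.05, and 0 had an unadjusted p under 0.05. Of all 20069 genes, 20.4% passed in either direction, 6.48% of them higher and 13.9% lower in HE as shares of the genes tested, and 36.9% had an unadjusted p under 0.05. The ranges of the 5 HE and 5 NC arrays were separate for 0 of the 9 members and for 16.5% of all genes. In whole-tissue RNA of this kind, fewer cells of a type and less RNA per cell cannot be told apart.

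**Figure D1:**
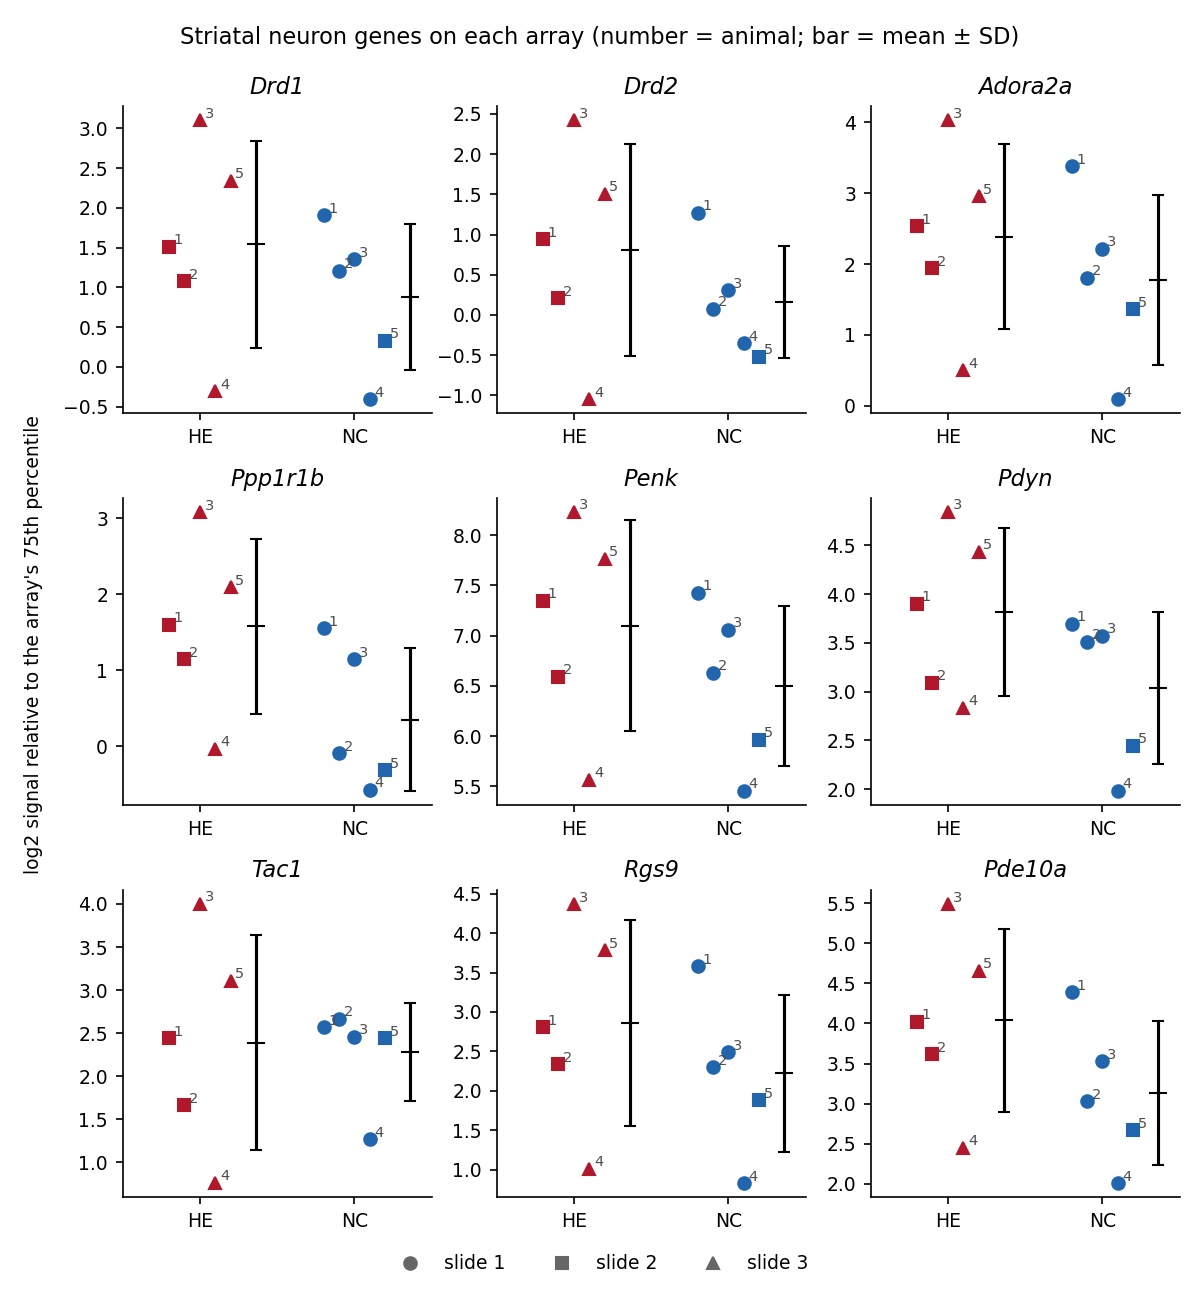
Relative log2 signal of the 9 genes on each array, with HE left and NC right; the numbers are the animals, the marker gives the slide, and the bar is the mean ± SD of 5 arrays. HE 3 is the highest array in every panel, and the lowest array is NC 4 in 7 panels and HE 4 in 2.

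Among the receptors, Drd1 (chromosome 13, 54051183 to 54055658 in GRCm38.p6) was spread over both groups. Its signal was 1.51, 1.08, 3.10, -0.31 and 2.34 on HE 1 to HE 5, against 1.91, 1.21, 1.35, -0.41 and 0.33 on NC 1 to NC 5. The lowest HE array and the lowest NC array lay close together, and the groups averaged 1.54 ± 1.30 in HE and 0.88 ± 0.92 in NC (SD, n = 5 each). The fitted difference was 0.67 ± 0.64 (SE, limma adjusted p = 0.481), with a 95% confidence interval of -0.75 to 2.08. Drd2 (chromosome 9, 49340360 to 49408177) encodes the receptor on which antipsychotic drugs act. Its signal was 0.94, 0.21, 2.42, -1.05 and 1.51 on HE 1 to HE 5, against 1.27, 0.08, 0.31, -0.35 and -0.52 on NC 1 to NC 5. HE held both the highest and the lowest array, and its SD was 1.32, against 0.70 in NC. The difference of 0.65 ± 0.60 (limma adjusted p = 0.464) lay within that spread. The other Drd2 probe, 655 bases away on mm9, ran from -2.71 to 0.75 in HE and from -2.62 to -1.42 in NC, with a difference of 1.03 ± 0.54 (limma adjusted p = 0.187 over the 30981 probes tested).

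Adora2a (chromosome 10, 75316877 to 75334792), whose receptor opposes dopamine signalling in indirect-pathway cells, was measured by a pair of probes that behaved differently. The probe with the higher signal read 2.54, 1.94, 4.03, 0.50 and 2.96 on HE 1 to HE 5, against 3.38, 1.81, 2.22, 0.09 and 1.36 on NC 1 to NC 5. Its highest and lowest arrays, HE 3 and NC 4, differed 15.4-fold, the widest span among the 9 genes, and the groups differed by 0.62 ± 0.71 (limma adjusted p = 0.56). The other probe, 1320 bases away on mm9, was well above background on all 10 arrays but read only 0.63, 0.48, 0.71, 0.11 and 0.47 in HE, against 0.19, 0.16, 0.17, 0.30 and 0.25 in NC. It spanned 0.60 over the 10 arrays where the first spanned 3.94. HE 4 was again the lowest HE array on this probe, while NC 4 was the highest NC array. Its difference of 0.26 ± 0.11 was at an unadjusted p of 0.0435 in limma and did not pass after adjustment over probes (adjusted p = 0.118), where 23.1% of all probes passed, 7.7% higher and 15.5% lower in HE. Which transcripts each probe detects was not tested.

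Of the signalling proteins, Ppp1r1b had the largest difference of the 9 genes. Ppp1r1b (chromosome 11, 98348406 to 98357796) encodes an inhibitor of protein phosphatase that dopamine switches on through cyclic AMP. Its signal was 1.60, 1.15, 3.08, -0.03 and 2.09 on HE 1 to HE 5, against 1.55, -0.09, 1.15, -0.57 and -0.31 on NC 1 to NC 5. Only HE 4 among the HE arrays lay under 1, and 3 of the 5 NC arrays lay below 0. The difference of 1.23 ± 0.60 had a 95% confidence interval of -0.09 to 2.56 and did not pass (limma adjusted p = 0.162). The probe for Ppp1r1b spans 1375 bases of mm9 and therefore crosses at least 1 intron.

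Rgs9 (chromosome 11, 109225348 to 109298181) encodes a protein that shortens signalling by G proteins downstream of dopamine receptors. It read 2.81, 2.34, 4.37, 1.01 and 3.78 on HE 1 to HE 5, against 3.58, 2.30, 2.49, 0.83 and 1.88 on NC 1 to NC 5. HE 3 and HE 5 lay above all NC arrays, the other HE arrays lay among them, and the difference was 0.65 ± 0.66 (limma adjusted p = 0.509). Pde10a (chromosome 17, 8525187 to 8986648) encodes a phosphodiesterase that breaks down cyclic nucleotides and is abundant in striatal projection neurons. It read 4.02, 3.62, 5.49, 2.45 and 4.66 on HE 1 to HE 5, against 4.39, 3.03, 3.53, 2.01 and 2.67 on NC 1 to NC 5. NC 1 reached above 3 of the 5 HE arrays, and the difference of 0.92 ± 0.58 did not pass (limma adjusted p = 0.279). A dimmer Pde10a probe, 4321 bases away, gave 1.25 ± 0.58 (limma adjusted p = 0.142), with HE 3 highest and NC 4 lowest as on the first.

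For Penk and Tac1, a probe reads through the codons of the peptides themselves. The second Penk probe (mm9 chr4:4061458-4061517) is shown because its 60 bases hold 2 copies of the codons for Met-enkephalin, in capitals, on either side of a basic cleavage site. The Tac1 probe (mm9 chr6:7507722-7509136, a span of 1415 bases with an intron) is shown because it holds the codons for neurokinin A, in capitals.
Penk A_52_P286166: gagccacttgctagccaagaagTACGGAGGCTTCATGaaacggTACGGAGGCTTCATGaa
Tac1 A_51_P216456: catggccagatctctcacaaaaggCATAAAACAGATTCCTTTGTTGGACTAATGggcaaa

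Penk (chromosome 4, 4133536 to 4138815) read 7.34, 6.59, 8.23, 5.56 and 7.76 on HE 1 to HE 5, against 7.42, 6.63, 7.06, 5.45 and 5.96 on NC 1 to NC 5. HE 4 and NC 4 were the lowest arrays of their groups, and both lay below every other array. The difference was 0.59 ± 0.53 (limma adjusted p = 0.447). On the probe printed above, Penk read 4.21, 3.31, 5.63, 2.13 and 4.73 in HE, against 3.73, 2.72, 3.77, 2.07 and 2.23 in NC, and the difference was 1.10 ± 0.62 (limma adjusted p = 0.221 over probes). The order of the arrays was close to that of the first probe, with HE 3 and HE 5 on top and NC 4 at the bottom of both.

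Pdyn (chromosome 2, 129686549 to 129699938), the precursor of dynorphins, had the lowest SD within groups of the 9 genes and still spanned 7.28-fold between its highest and its lowest array. It read 3.90, 3.09, 4.84, 2.83 and 4.43 on HE 1 to HE 5, against 3.69, 3.51, 3.57, 1.98 and 2.44 on NC 1 to NC 5. NC 4 and NC 5 lay below all HE arrays, while NC 1 to NC 3 lay among them, and the difference was 0.78 ± 0.46 (limma adjusted p = 0.25). Tac1 (chromosome 6, 7555061 to 7562978), the precursor of substance P and neurokinin A, read 2.44, 1.66, 4.0, 0.76 and 3.11 on HE 1 to HE 5, against 2.57, 2.67, 2.46, 1.27 and 2.44 on NC 1 to NC 5. NC arrays other than NC 4 lay between 2.44 and 2.67, and HE arrays lay both above and below that range. Its difference of 0.11 ± 0.55 (limma adjusted p = 0.906) was the smallest of the 9, and it turned negative without NC 4 (-0.14), HE 3 (-0.29) or HE 5 (-0.06) and within slide 2 (-0.38). A pair of further probes carries the name Tac1 in the files but was designed on another sequence record and lies 4842 and 6333 bases past the first. The first of these was well above background on 0 of 10 arrays. The second was so on 4 HE and 2 NC arrays, and its difference was 0.17 ± 0.35 (limma adjusted p = 0.755).

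**Figure D2:**
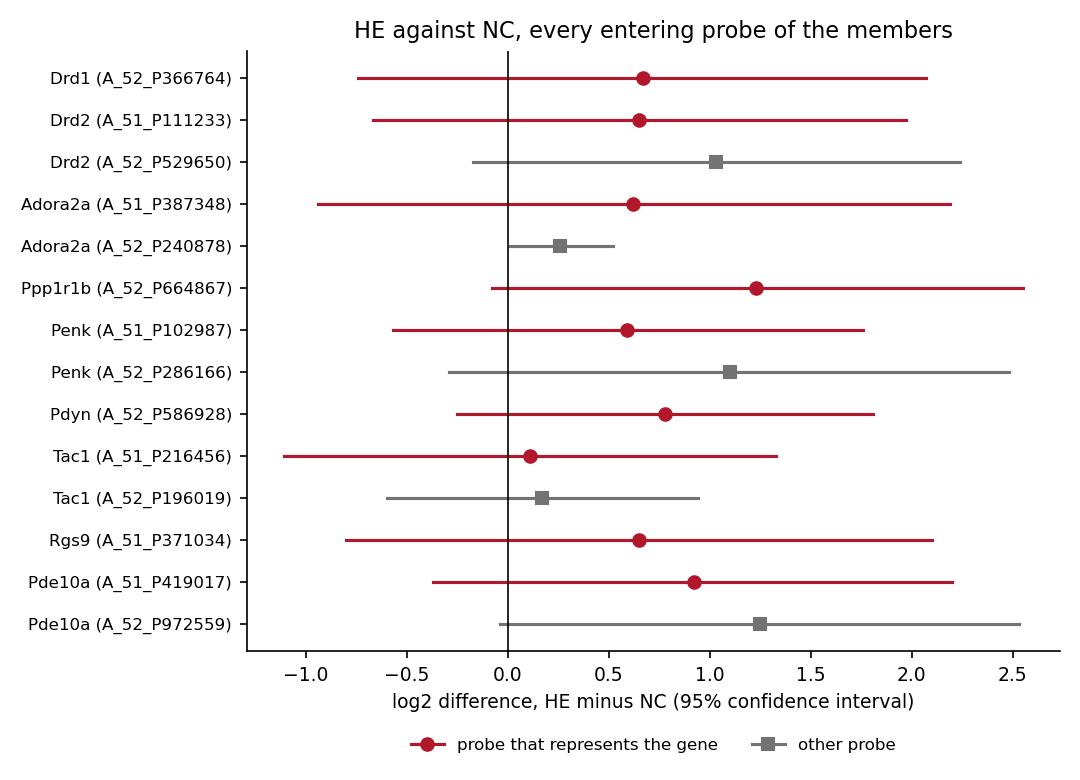
Log2 difference, HE minus NC, with its 95% confidence interval for the 14 entering probes, from the limma fit over all probes. Every point lies right of 0, and the interval excludes 0 only for the second Adora2a probe (0.01 to 0.52), which did not pass after adjustment.

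The group difference has to be read against the slides. Slide 2 is the only slide with both groups, and within it (HE 1 and HE 2 against NC 5) the differences of the 9 genes ran from -0.38 for Tac1 to 1.69 for Ppp1r1b, with a median of 1.01 and 8 of 9 positive. With slide as a block, which leaves this same comparison, the limma adjusted p was 0.432 for Ppp1r1b and 0.865 for Tac1, the lowest and highest of the 9. On the 7 arrays with Xist above Ddx3y alone, the 9 differences ran from 0.46 to 1.43, and on the arrays without NC 1, NC 2 and NC 4 from -0.05 to 1.16. None of these fits called a member, but few genes passed in most of them: 1.02% of all genes with slide as a block, 0 of 20069 on slide 2 alone, 0.384% on the arrays with Xist above Ddx3y and 9.57% without NC 1, NC 2 and NC 4. At an unadjusted limma p under 0.05 stood 3 of the 9 members on slide 2 alone, where NC is a single array assumed to vary like HE and 35.3% of all genes did so. In the other fits 0 members did, against 23.6%, 26.1% and 33.4% of all genes.

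The 9 genes varied far more between animals of a group than most genes did. Their SD within groups was 0.82 for Pdyn to 1.26 for Adora2a, with a median of 1.05, whereas the median of all genes tested was 0.26. The members lay between the 94.4th and the 98.7th percentile of all genes. HE 3 was the highest array for 9 of the 9 genes, while 15.4% of all genes were highest there. HE 5 came next for 8 of them and NC 1 for Adora2a. At the other end, NC 4 was lowest for 7 genes, and HE 4 for Drd2 and Tac1. Averaged over the 9 genes, the arrays stood at 3.01, 2.41, 4.40, 1.30 and 3.63 for HE 1 to HE 5, against 3.31, 2.35, 2.68, 1.14 and 1.80 for NC 1 to NC 5.

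These distances appeared within a slide and within a group. HE 3 and HE 4 lay on slide 3, and HE 3 was higher for 9 of 9 genes, by 2.01 (Pdyn) to 3.54 (Adora2a) on the log2 scale with a median of 3.24, against -0.06 over all genes. HE 5 exceeded HE 4 on the same slide by 1.60 (Pdyn) to 2.77 (Rgs9). NC 1 exceeded NC 4 on slide 1 by 1.31 (Tac1) to 3.29 (Adora2a), with a median of 2.11 against 0.02 over all genes. These pairs of arrays were picked after their values were seen, and the differences are given without a test. HE 3 and HE 4 differ in Xist as well, at 3.21 and -7.25, while HE 4 and HE 5 both had it low, and NC 1 and NC 4 both had it high together with Alb. The part of these patterns in the spread was not tested.

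**Figure D3:**
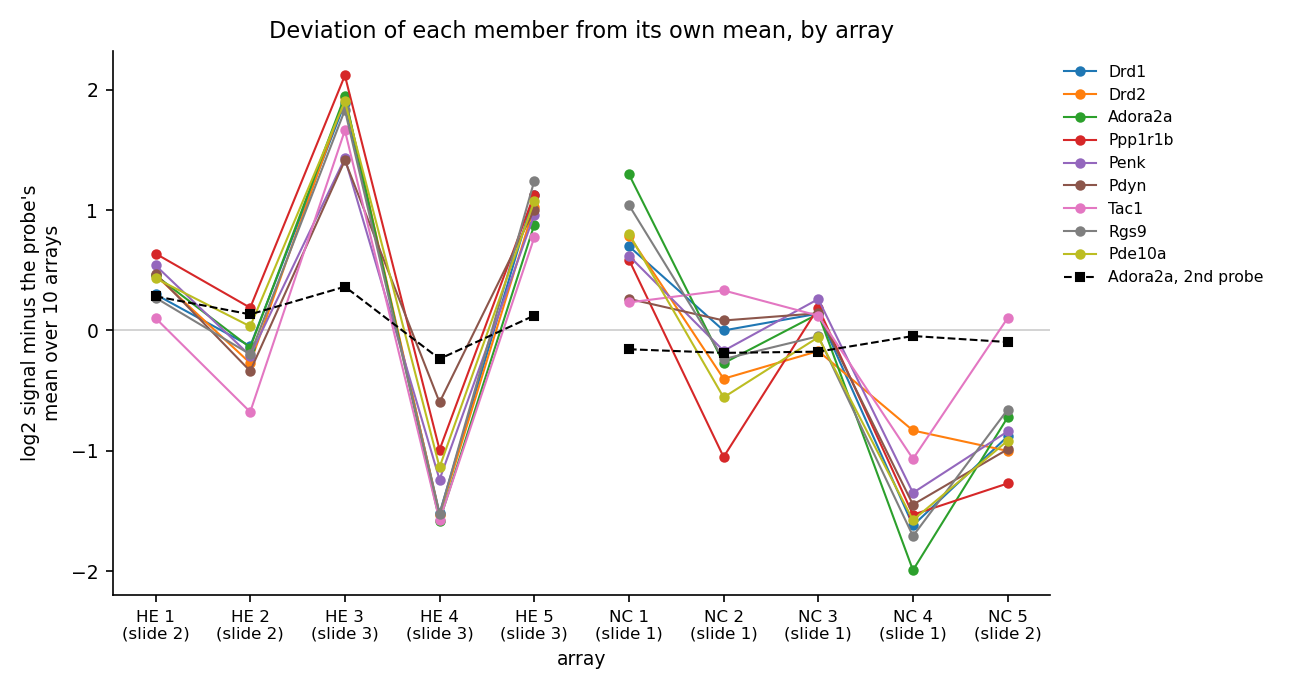
Log2 signal of each gene on each array minus the gene's mean over the 10 arrays, with HE arrays left and NC arrays right; the dashed line is the second Adora2a probe. The 9 genes move together, highest on HE 3 and below their means on HE 4 and NC 4, while the second Adora2a probe stays within 0.60 overall.

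The members kept nearly the same order of arrays. Over the 36 pairs of members and 10 arrays, Pearson's r ran from 0.735 (Ppp1r1b with Tac1) to 0.988 (Drd1 with Penk), with a median of 0.94. Spearman's rho ran from 0.685 to 1 for the same pairs, with a median of 0.952. In permutation tests with 100000 resamples (two-sided), Benjamini-Hochberg adjusted over the 36 pairs, p was 6.55e-05 to 0.0137 for r and 0.000103 to 0.0351 for rho. The raw p ran from 2e-05, the smallest that the resamples can give, to 0.0137 for r and to 0.0351 for rho. The highest r thus joined a direct-pathway gene, Drd1, with an indirect-pathway gene, Penk, and Tac1 had the lowest. Without the 2 arrays farthest from the median of the first gene of each pair, r was 0.438 to 0.981 with a median of 0.892. With slide means removed it was 0.74 to 0.99, and with group means removed 0.838 to 0.991. Pairs share arrays, so they are not independent of each other.

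**Figure D4:**
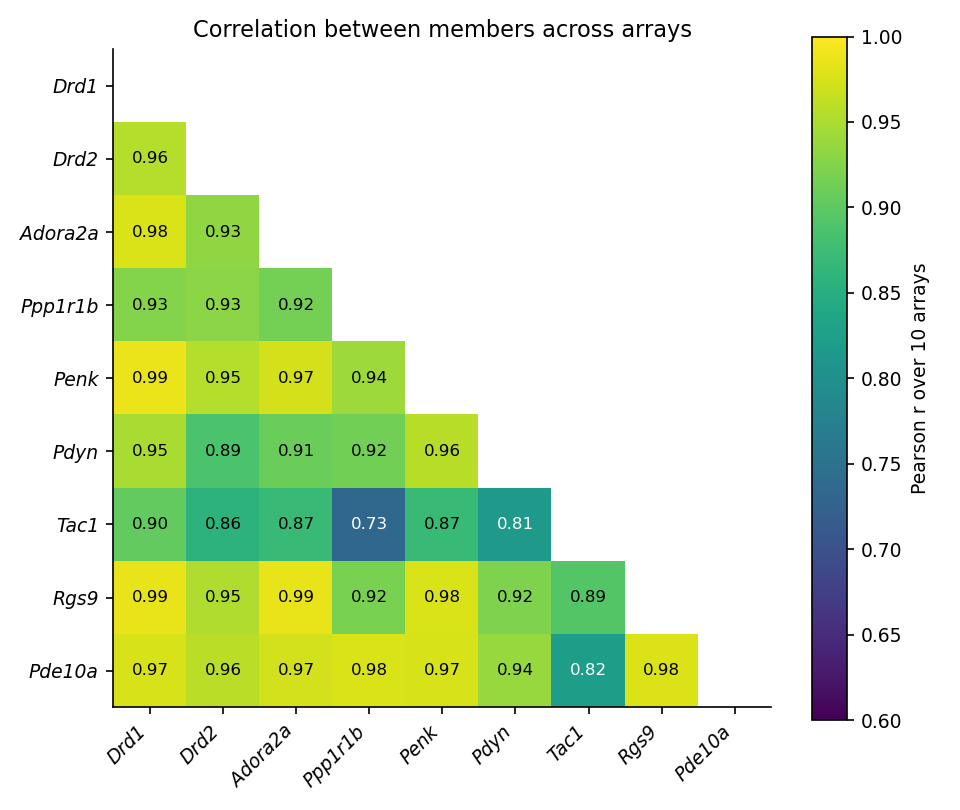
Pearson's r over 10 arrays for each of the 36 pairs of members. The lowest values lie in the row and column of Tac1, down to 0.735 with Ppp1r1b, and the highest is that of Drd1 with Penk (0.988).

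For each member, the 2 genes most like it across the 10 arrays, by Pearson's r, were taken from 15319 genes with ordinary symbols. They came to 14 different genes, of which 5 stood on a list of further striatum-enriched genes. Ido1, which encodes a tryptophan-degrading enzyme, was among the nearest for Adora2a, Penk, Rgs9 and Pde10a (r of 0.979 to 0.996). Drd2 was most like Ankk1 (0.985), the next annotated gene on chromosome 9, which starts 7016 bases past the end of Drd2 with 0 genes between them. Actn2, a cytoskeletal actinin, came second for Drd2 (0.983), and Adcy5, the adenylyl cyclase of striatal neurons, for Ppp1r1b (0.986, after Dmkn with 0.986). The nearest of Drd1 were Serpina9 (0.985) and Slc35d3 (0.979), and those of Pdyn were Cdc42ep3 (0.983) and Vav1 (0.978). Tac1 was nearest to Pcp4l1 (0.970) and to Rarb, a retinoic acid receptor (0.959), while Pik3c2b was near Adora2a (0.982) and Rgs9 (0.980), and Gdpd5 near Penk (0.977). None of the 14 passed the test of HE against NC (limma adjusted p of 0.114 to 0.977), where 20.4% of all genes did. They were picked for following members that did not pass, so this outcome was largely set in advance.

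A list of 24 further striatum-enriched genes had 20 with a measured probe, and these followed the same arrays. All 20 were higher on HE 3 than on HE 4, with a median difference of 2.39, 16 were highest on HE 3, and 19 were higher on NC 1 than on NC 4, with a median of 1.38. Between the groups, 2 rose and 1 fell in HE (15.0% called, against 20.4% of all genes), with a median of 0.82. Rasd2, a small G protein of striatal neurons, rose by 1.53 ± 0.47 (limma adjusted p = 0.044), at 0.42, 0.00, 1.75, -0.57 and 0.91 on HE 1 to HE 5, against 0.08, -1.33, -0.62, -1.62 and -1.68 on NC 1 to NC 5. Bcl11b, a transcription factor of projection neurons, rose by 1.27 ± 0.38 (limma adjusted p = 0.0419), at 2.55, 2.35, 3.72, 2.01 and 3.24 in HE, against 2.35, 1.54, 1.68, 1.37 and 0.56 in NC. Both groups overlapped for each of these genes. Rasgrp2, an exchange factor for small G proteins, fell by 0.66 (limma adjusted p = 0.0383), but its other probe went the opposite way and the mean of its probes gave 0.07. The fourth by p, the transcription factor Foxp1, stood at 0.89 ± 0.32 (limma adjusted p = 0.0724), and 1 of its 3 probes went the opposite way. With the mean of probes, Foxp1 stood at 0.52 (limma adjusted p = 0.283), and Bcl11b at 1.16 did not pass (limma adjusted p = 0.0555). Rasd2 and Bcl11b each lost their call when any 1 of 8 of the 10 arrays was left out (all but HE 4 and NC 1), at differences of 1.22 to 1.66 and 1.04 to 1.38, and Rasgrp2 when any 1 of 7 was (all but HE 3, NC 1 and NC 3), at -0.67 to -0.58. With slide as a block, Rasd2 and Bcl11b both stood at 1.89 (limma adjusted p = 0.26 and 0.145), and 0 of the 20 passed, with 2 at an unadjusted p under 0.05, where 1.02% and 23.6% of all genes did.

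Genes of dopamine and cyclic AMP signalling outside these lists were split between HE 3 and HE 4. Of 29, 15 were higher on HE 3 than on HE 4, with a median difference of 0.00. Still, 12 were highest on HE 3, where 15.4% of all genes were, and 22 were higher on NC 1 than on NC 4, with a median of 0.32. Between the groups, 3 rose and 0 fell in HE (10.3% called, against 20.4%, and 8 had an unadjusted limma p under 0.05), with a median of 0.25. Ppp3r1, the regulatory subunit of calcineurin, which dephosphorylates the Ppp1r1b product, rose by 0.80 ± 0.19 (limma adjusted p = 0.019). Its arrays did not overlap, at 0.42 to 0.97 in HE and -0.65 to 0.40 in NC. Cdk5r1, the activator of a kinase that phosphorylates the Ppp1r1b product, rose by 0.43 ± 0.11 (limma adjusted p = 0.0246), at 4.67 to 4.86 in HE and 4.06 to 4.62 in NC. Pde2a, a phosphodiesterase of cyclic nucleotides, rose by 0.86 ± 0.25 (limma adjusted p = 0.0361), and Gnb5, the partner subunit of the Rgs9 product, stood at 0.87 ± 0.28 (limma adjusted p = 0.054). Cdk5r1 did not pass without NC 2, HE 4 or HE 5, nor Pde2a without NC 2, HE 1, HE 2, HE 3 or HE 5 (0.80 to 0.88 there), and the list held 6 calls without NC 1 and 1 without NC 2 or HE 5. Ppp3r1 passed with any 1 array left out. With slide as a block, Ppp3r1 stood at 1.14 and Cdk5r1 at 0.62, and neither passed (limma adjusted p = 0.0762 and 0.109), while Pde2a did at 1.73 (limma adjusted p = 0.0494).

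The opioid and tachykinin system was represented by 15 tested genes out of 17, since Oprd1 and Tacr2 did not enter. Of these, 1 rose and 0 fell in HE (6.67% called, against 20.4%), the median was 0.05, and 7 of 15 were higher on HE 3 than on HE 4. Pcsk2, a convertase that cuts the Penk, Pdyn and Tac1 products into peptides, rose by 0.52 ± 0.15 (limma adjusted p = 0.0384), at 4.93 to 5.04 in HE and 4.13 to 4.98 in NC. It did not pass with any 1 array left out other than NC 1 and NC 3 (0.44 to 0.54, limma adjusted p = 0.0632 to 0.089), nor with slide as a block (0.83, limma adjusted p = 0.143). Without NC 1 the list held 2 calls. The next by p were the receptor gene Tacr3 at -0.90 ± 0.49 (limma adjusted p = 0.215), the neurokinin B precursor gene Tac2 at 0.42 ± 0.26 (limma adjusted p = 0.27) and the kappa receptor gene Oprk1 at -0.47 ± 0.34 (limma adjusted p = 0.337).

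**Figure D5:**
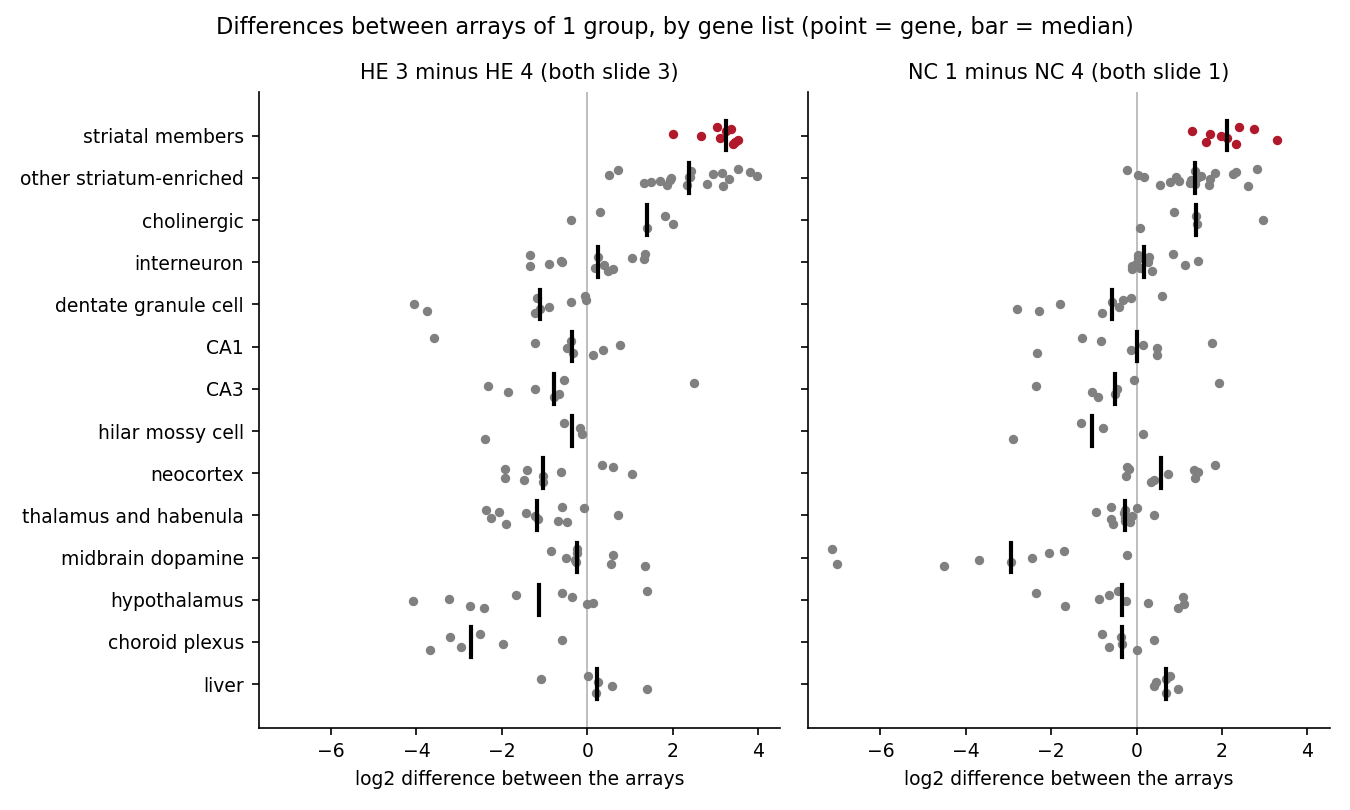
Log2 difference between HE 3 and HE 4 (left) and between NC 1 and NC 4 (right) for each gene of 14 lists; a point is a gene and the bar is the list's median. The 9 striatal members (red) have medians of 3.24 and 2.11, the further striatum-enriched genes 2.39 and 1.38, and the cholinergic markers 1.41 and 1.40.

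Markers of other cells in or next to the hippocampus were set beside the members. Their summed level, in units of the array's 75th percentile, was 67.1 to 449 in HE and 59.1 to 242 in NC for the 9 members, and 66.8 to 354 in HE and 60.3 to 166 in NC for the further striatum-enriched genes. In each sum, here and below, the brightest probes weigh most, among the members that of Penk (5.45 to 8.23 on the log2 scale). Cholinergic markers, 5 in all, were also highest on HE 3 (0.706 to 3.49 in HE, 0.81 to 1.90 in NC) with 0 called, and 3 of the 5 were well above background on all 10 arrays. Chat, the enzyme that makes acetylcholine, lay between -5.69 and -4.28 in HE and between -5.73 and -4.87 in NC. Neocortex markers summed to 40.4 to 49.8 in HE and 21.4 to 47.1 in NC, with 9 of 10 higher in HE on average and 1 passing. The 1 that passed is also counted among the interneuron markers. Of the 10, 7 were lower on HE 3 than on HE 4, with a median difference of -1.04, while 7 were higher on NC 1 than on NC 4, with a median of 0.57. Their first marker, Rorb, did not pass (0.05, limma adjusted p = 0.90).

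Hippocampal markers were mixed in how they followed the arrays. Of the dentate granule cell markers, 0 of 9 were higher on HE 3 than on HE 4 and 1 of 9 on NC 1 than on NC 4. They summed to 4.84 to 9.94 in HE, with HE 4 on top, and 5.04 to 7.86 in NC, and 1 of 9 passed, lower in HE. Their first marker, Prox1, stood at -0.89 (limma adjusted p = 0.0526). CA3 markers were higher on HE 3 than on HE 4 in 1 of 7, and summed to 89.3 to 135 in HE and 70.7 to 105 in NC, with 1 of 7 passing, higher in HE. The marker that passed also had the highest signal of the 7 on every array, so it weighs most in these sums. Interneuron markers came nearer to the members: 7 of 13 were highest on HE 3, 8 were higher on HE 3 than on HE 4 with a median difference of 0.26, and 10 were higher on NC 1 than on NC 4. Their sums, in which the brightest probes weigh most, went the other way from the members in HE, from 182 on HE 3 to 222 on HE 4. In NC they were 120 to 178. Of the 13, 6 passed, 5 higher and 1 lower in HE. CA1 markers summed to 47.8 to 65.0 in HE, with 64.9 on HE 3 and 59.7 on HE 4, and 18.8 to 40.7 in NC. Of the 8, 3 were higher on HE 3 than on HE 4, with a median difference of -0.36, and 4 passed, all higher in HE. Hilar mossy cell markers summed to 1.78 to 3.19 in HE and 2.68 to 5.08 in NC, with 0 of 4 called. The first markers of these lists did not pass, namely Grik4 (0.06), Gad1 (-0.02), Wfs1 (0.50) and Calb2 (-0.93, limma adjusted p = 0.31).

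Markers of other regions differed between the groups or between single arrays. Thalamus and habenula markers summed to 12.5 to 27.5 in HE, with HE 4 on top, and 41.0 to 92.0 in NC, and 9 of 12 fell in HE, among them Tcf7l2, a transcription factor of thalamic neurons, by 2.62 (limma adjusted p = 0.00609). Midbrain dopamine neuron markers summed to 8.62 to 10.8 in HE and 12.5 to 70.5 in NC, with 0 of 9 higher in HE on average and 3 passing as lower. Their first marker, Th, the rate-limiting enzyme of dopamine synthesis, did not pass (-1.94, limma adjusted p = 0.162). It was 1.36 on NC 2 and 1.20 on NC 4, where members averaged 2.35 and 1.14. On NC 1, NC 3 and NC 5 it was -3.30, -3.15 and -1.47, and in HE -3.62 to -2.15. Hypothalamus markers summed to 5.46 to 18.0 in HE and 10.9 to 32.8 in NC (1 of 10 higher in HE on average and 2 passing as lower, Hcrt at -2.33 with limma adjusted p = 0.0444), and choroid plexus markers to 3.19 to 30.6 in HE and 2.26 to 43.8 in NC (0 of 6 called, Ttr at 0.80). Liver markers summed to 0.017 to 0.0848 in HE and 0.0295 to 4.17 in NC, with 6 of 6 lower in HE on average and 3 passing, and 0 of the 6 were well above background on all arrays. The part of any of these in the members' values was not tested.

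RefSeq promoter windows, the 250 bases before a transcript start on GRCm38.p6, were available for 6 of the 9 members in 9 windows, and not for Penk, Adora2a and Ppp1r1b. They were searched on both strands for the core of the site bound by cyclic AMP response factors, TGACG or its complement CGTCA, because the receptors among the members act through cyclic AMP. The core was found in 1 of the 9 windows, that of Tac1, which holds 2 copies, and in 17.8% of all 32851 windows. The full site TGACGTCA, which overlaps with the core, was found in 0 of the 9 windows and in 1.55% of all. The window of Tac1 (chr6:7554811-7555060, plus strand) is shown because it alone holds the core, in capitals, although Tac1 followed the other members across arrays. A match is no evidence of binding.
Tac1 promoter window: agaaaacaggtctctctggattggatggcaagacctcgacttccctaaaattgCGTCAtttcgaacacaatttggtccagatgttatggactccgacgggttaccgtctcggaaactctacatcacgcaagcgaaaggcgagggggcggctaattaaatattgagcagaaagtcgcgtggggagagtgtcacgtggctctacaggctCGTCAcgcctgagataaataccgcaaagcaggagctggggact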

How the data were processed

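Hippocampal RNA of 10 mice was labelled with Cy3, per the labels' protocols, and per the submitters' processing notes Agilent Feature Extraction 10.7 read the images. Scanner files hold spot intensity, deposited without normalization between arrays; per the file headers, background subtraction and detrending had been applied to each array. The deposited series table holds log2 values, 1 per probe. They correlated with log2 intensity of the same array at 0.9987 to 1.0, and column medians were 7.0334 to 7.0337, so scale and direction are known and no centring was seen, while how they were made is not given in the sources used here.

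From each array's log2 intensities, the 75th percentile over its non-control probes was subtracted. Outlier spots were left out (68 to 129 per array), none was saturated, and replicate spots were averaged. Probes entered where 3 or more of the 5 arrays of either group were well above background. Of a gene's entering probes, the one with the highest mean stood for the gene. Probes were named through RefSeq (27660 by accession, 5539 by symbol, 459 by synonym and 85 by another accession; 7431 kept the file's name). Probe positions are on mm9, per the file headers.

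HE was set against NC in R 4.3.3 with limma 3.58.1 (two-sided, lmFit followed by eBayes, without covariates), with Benjamini-Hochberg adjustment at 0.05. Permutations used scipy 1.17.1. On simulated data for this comparison with 20021 genes, independent of each other and without slide effects, the test recovered 19.4%, 56.7% and 89.4% of genes changed by log2 0.5, 1 and 2, with 6 wrong among 116 calls, and made 0 calls with nothing planted. The changed genes were drawn from all genes, whose median SD within groups was 0.26, against 0.82 to 1.26 for the members. Recovery at the members' SDs was not simulated, so these shares do not describe the members. The members and lists were chosen with earlier results of these data known. The text names all members and their probes, the 4 genes of each further list with the smallest p, the first marker of each marker list and the 2 genes most like each member. One item that this rule takes is not reported here. The alternatives are given in the closing section. No 2 arrays were duplicates (SD of the log2 difference within groups 0.444 to 0.722).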

Additional observations from a re-analysis of the deposited data

Results flagged for a closer look

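In a group of 5 arrays, a value was marked where the gap from the highest or lowest array to its nearest neighbour took more than 0.71 of the group's range (Dixon's 95% value). Of 54 groups tested, 2 were marked, and chance marks about 1 in 20. For Tac1, NC 4 stood at 1.27, below the other NC arrays at 2.44 to 2.67. For Rasgrp2, HE 3 stood at 2.67, above the other HE arrays at 1.85 to 2.06.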

How the results depend on the processing

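Slide 2 alone, with its 1 NC array, is set aside for these counts. The members called were 0 in the main comparison and in the alternatives, where 0.384% (arrays with Xist above Ddx3y alone) to 44.2% (normexp) of all genes passed. At an unadjusted limma p under 0.05 stood 0 to 3 members, against 23.6% to 55.6% of all genes. The 3 were without HE 4, where 33.9% of all genes did so. The difference of the members other than Tac1 was positive in each of the 24 alternatives. Tac1 (0.11) turned to -0.38 with slide as a fixed block and on slide 2 alone, -0.14, -0.29 and -0.06 without NC 4, HE 3 and HE 5 (-0.29 to 0.52 leaving out 1 array), and -0.05 without NC 1, NC 2 and NC 4, a choice made after seeing the data. Tac2 turned to -0.19 with slide as a fixed block and on slide 2 alone, and Rasgrp2 to 0.07 with the mean of all probes.

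Of all genes, 4089 passed (1301 higher, 2788 lower). With slide as a fixed block 205 passed (114 higher), on slide 2 alone 0 (limma, with the lone NC array assumed to vary like HE; 7079 at an unadjusted p under 0.05), with normexp 8867 (1800 higher, 7067 lower), on the arrays with Xist above Ddx3y alone 77, without NC 1, NC 2 and NC 4 1921, and with the members' mean as a covariate, chosen after seeing the data, 2503. Normexp moved the median of all genes to -0.29 from -0.06. Higher calls made up 31.8%, but 44.2% after quantile normalization (1896 higher, 2398 lower) and 44.6% in the deposited table (1918 higher, 2383 lower). Leaving out 1 array gave 1980 to 4212, with 1980 without NC 2, 2049 without HE 1 and 2251 without NC 5.

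Further striatum-enriched genes called (3) were 0 with slide as a fixed block, slide 2 alone, no filter, arrays with Xist above Ddx3y and without NC 1, NC 2 and NC 4, and 1 with the mean of probes. Dopamine and cyclic AMP genes called (3) were 1 with slide as a fixed block, 0 on slide 2 alone and on the arrays with Xist above Ddx3y, 16 with normexp, 6 with the mean of probes, and 5 with an intensity trend, with the Xist pattern as a covariate and without NC 1, NC 2 and NC 4. Opioid and tachykinin genes called (1) were 0 with slide as a fixed block, slide 2 alone, no filter and the arrays with Xist above Ddx3y, and 4 with normexp. Leaving out 1 array gave 0 to 4, 1 to 6 and 0 to 2 for these lists. Where these lists had 0 calls, 0 to 14 of their genes had an unadjusted limma p under 0.05. The causes were not tested.

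Same-numbered arrays of the groups deviated together at r of -0.077 to 0.127, and 2 of 5 matched best with their own number. So few values cannot decide whether the numbers pair the animals. With the replicate block, 3032 genes passed (721 higher), the opioid and tachykinin list had 0 calls, and 0 members passed. Ppp1r1b alone of the members had an unadjusted limma p under 0.05 (0.0133, against 0.0654 in the main comparison), where 34.8% of all genes did. Of the further striatum-enriched genes 11 of 20 did, against 4 in the main comparison. Of the dopamine and cyclic AMP genes 10 of 29 did, against 8.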
